A study of Mus musculus with 2 samples.

Results

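Mast cells and basophils were followed through 8 genes: Cpa3, Ms4a2, Fcer1a, Mcpt8, Prss34, Tpsb2, Cma1 and Mcpt4. They were taken by symbol from the gene tables of both libraries, where they are 8 of 32285 genes, and each symbol matched 1 row in each library. Each library came from 1 liver of a mouse that was a Hhex knockout and that had received tetraploid (4N) embryonic stem cells carrying tdTomato at the blastocyst stage. The sample titles give postnatal day 180 for the library labelled P180 and the embryonic stage E18.5 for that labelled E18.5. The contents of the libraries go against these labels, as described below. Both animals carried the knockout and the injected cells, so no wild-type or uninjected liver was set against them, and whether a cell came from the host or from the injected line was not measured here. Single cells were captured on the 10x Chromium with 3′ v3 chemistry, which counts unique molecular identifiers (UMIs) per gene and cell barcode. With 1 library per label there is no replicate, so levels are given with intervals that cover counting error only, and no test between the libraries was made.

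Mast cells and basophils are granulocytes that carry the high-affinity receptor for IgE and release histamine, proteases, lipid mediators and cytokines when it is crosslinked. Mast cells mature in tissues under the KIT receptor and, in the mouse, store tryptases and chymases in their granules. Basophils mature in the bone marrow, circulate in the blood, and in the mouse are marked by the proteases Mcpt8 and Prss34. Fetal liver is a site of blood formation in which early mast cell and granulocyte precursors arise.

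Of the genes that both cell types use, Cpa3 (ENSMUSG00000001865, chr3:20215620-20242181, minus strand, up to 11 exons) encodes the granule carboxypeptidase A3. Ms4a2 (ENSMUSG00000024680, chr19:11615523-11623719, minus strand) and Fcer1a (ENSMUSG00000005339, chr1:173221284-173227214, minus strand) encode the beta and alpha chains of the IgE receptor. Mcpt8 (ENSMUSG00000022157, chr14:56082166-56085273, minus strand) and Prss34 (ENSMUSG00000056399, chr17:25298394-25300165, plus strand) encode the basophil proteases. Cma1 (ENSMUSG00000022225, chr14:55941451-55944675, minus strand) and Mcpt4 (ENSMUSG00000061068, chr14:56059629-56062313, minus strand) encode chymases, and Tpsb2 (ENSMUSG00000033825, chr17:25366305-25369098, plus strand) encodes a tryptase. Positions are on mm10 (GENCODE M21), and all 8 are protein-coding genes. Cma1, Mcpt4 and Mcpt8 lie in 1 protease cluster on chromosome 14, with Ctsg, Gzmc and Gzmb beside them, and Prss34 and Tpsb2 lie in the tryptase cluster on chromosome 17. The Mcpt4 transcript aligned with 86.7% identity to that of Cma2 and shared an unbroken run of 100 bases with it, so reads from that stretch could not be assigned to either gene. Tpsb2 and Tpsab1 shared a run of 23 bases at most.

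Binding sites of GATA factors are known in genes of this lineage, and Gata2, a GATA factor that mast cells and basophils need, was among the genes most like the 8 in these cells. The 250 bases before the RefSeq start (GRCm38.p6) were therefore searched for AGATAA and TGATAA on both strands. A window was given for 7 of the 8 genes, and 5 of the 7 held a match, against 16.6% of 32851 windows of all genes. Ms4a2 held 3 matches, Cpa3, Prss34, Fcer1a and Mcpt4 held 1 each, and Mcpt8 and Cma1 held none. A match is a description of the letters and not a site of binding. The 4 windows printed show the receptor chain with the most matches, the shared carboxypeptidase and both basophil proteases, 5′ to 3′ on the strand of the gene, with matches in capitals. They are chr19:11623720-11623969 (minus strand), chr3:20242182-20242431 (minus strand), chr17:25298144-25298393 (plus strand) and chr14:56085198-56085447 (minus strand).
Ms4a2: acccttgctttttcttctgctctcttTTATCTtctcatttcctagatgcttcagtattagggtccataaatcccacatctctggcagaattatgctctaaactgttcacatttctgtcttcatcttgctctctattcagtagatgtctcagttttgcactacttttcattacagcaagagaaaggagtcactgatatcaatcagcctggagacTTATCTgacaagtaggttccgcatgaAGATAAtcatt
Cpa3: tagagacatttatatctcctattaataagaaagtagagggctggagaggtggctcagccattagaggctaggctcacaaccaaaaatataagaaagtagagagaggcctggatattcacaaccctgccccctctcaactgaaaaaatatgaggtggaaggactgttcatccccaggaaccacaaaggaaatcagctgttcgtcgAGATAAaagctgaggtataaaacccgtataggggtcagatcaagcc
Prss34: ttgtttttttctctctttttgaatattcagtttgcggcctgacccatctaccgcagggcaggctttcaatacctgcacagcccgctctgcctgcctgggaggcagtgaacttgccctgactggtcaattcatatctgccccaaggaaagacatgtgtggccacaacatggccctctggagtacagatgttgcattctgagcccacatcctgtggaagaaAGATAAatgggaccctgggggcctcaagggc
Mcpt8: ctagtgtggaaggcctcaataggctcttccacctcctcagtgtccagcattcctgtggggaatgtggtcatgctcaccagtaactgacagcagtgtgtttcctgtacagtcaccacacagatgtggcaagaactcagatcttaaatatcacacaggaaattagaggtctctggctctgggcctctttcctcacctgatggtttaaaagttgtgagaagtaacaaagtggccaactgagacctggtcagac
Prss34 and Mcpt8 were found in the same cells, and of these windows the Prss34 window held a match and the Mcpt8 window did not.

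The library labelled P180 held 9771 barcodes and 90128038 UMIs, and the library labelled E18.5 held 9871 barcodes and 37709972 UMIs. After filters on genes, UMIs and mitochondrial UMIs, 9582 barcodes labelled P180 and 4721 labelled E18.5 were left. Removal of likely doublets left 8847 cells labelled P180 (median 5905 UMIs) and 4543 labelled E18.5 (median 4726 UMIs). The median mitochondrial share over all barcodes was 0.655% in the library labelled P180 and 16.7% in that labelled E18.5. The labels go against the contents: erythroid-like cells made up 78.4% of cells in the library labelled P180 and 1.80% in that labelled E18.5, and B cell-like cells made up 2.27% in the library labelled P180 and 28.8% in that labelled E18.5. T cell-like cells (10.4%) and plasma cell-like cells (2.44%) formed clusters under the E18.5 label, and no cluster of the library labelled P180 took either name. Each library is therefore named by its label only, and no direction with age is drawn. Hhex, the targeted gene, had 42.7 CPM (UMIs of the gene per 1000000 UMIs) in the library labelled P180 and 99.1 CPM in that labelled E18.5, and whether these reads cover the deleted part was not tested. The libraries shared 28 barcodes.

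The 8 genes were found almost entirely in the library labelled P180. Over all cells kept, they summed to 4322 UMIs (52.6 CPM, 95% Poisson interval 51.1 to 54.2) there and to 63 UMIs (2.18 CPM, 1.67 to 2.79) in that labelled E18.5. Of the shared genes, Cpa3 had 842 UMIs in 39 cells labelled P180, against 5 UMIs in 2 cells labelled E18.5. Ms4a2 had 126 UMIs in 29 cells and Fcer1a 8 UMIs in 4 cells labelled P180, and neither had a UMI under the E18.5 label. Fcer1a was thus close to the limit of detection in both libraries.

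The basophil proteases had 584 UMIs in 102 cells (Mcpt8) and 848 UMIs in 49 cells (Prss34) in the library labelled P180, against 1 UMI and 0 UMIs in that labelled E18.5. Of the mast cell proteases, Tpsb2 had 608 UMIs in 7 cells and Mcpt4 had 475 UMIs in 8 cells in the library labelled P180, and neither had a UMI in the library labelled E18.5. A count of 0 there allows up to 0.0812% of its 4543 cells to carry a UMI of each such gene (exact binomial). Cma1, the other chymase, was the exception, with 831 UMIs in 15 cells in the library labelled P180 and 57 UMIs in 35 cells in that labelled E18.5. More cells thus carried a Cma1 UMI under the E18.5 label, each with few UMIs.

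The level summed over the 8 genes was 24.2-fold higher in the library labelled P180 than in that labelled E18.5 (95% interval 18.9 to 31.5). With likely doublets kept it was 42.8-fold (34.7 to 53.4). By gene, in the cells kept, the difference was at least 99.6-fold for Prss34, at least 71.4-fold for Tpsb2, at least 55.8-fold for Mcpt4 and at least 14.8-fold for Ms4a2, each against 3 counts over the library labelled E18.5. It was 59.3-fold for Cpa3 (25.3 to 183) and 5.14-fold for Cma1 (3.92 to 6.84), and for Mcpt8 it was 206-fold (36.8 to 8138), which rests on 1 UMI under the E18.5 label. With likely doublets kept the difference was at least 401.6-fold for Prss34, at least 36.8-fold for Ms4a2, 501-fold for Mcpt8 (138.5 to 4136) and 27.3-fold for Cpa3 (17.9 to 43.6), and for the other genes with at least 50 UMIs it moved by less than 1.5 times. All 7 genes with at least 50 UMIs over both libraries were at least 2-fold higher in the library labelled P180, against 9.92% of 15386 genes. Apart from Cma1, each of them reached 50 UMIs only through the library labelled P180. This count therefore follows from the minimum and gives no support of its own. Fcer1a was under that minimum. The median log2 ratio over 12166 genes with at least 50 UMIs in each library was -1.01, and the 7 genes lay above it with log2 ratios of 2.36 and more. Fewer cells of a type and less RNA per cell cannot be told apart in these summed levels, and the counts per cell that follow bear on it.

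Nearly all of these UMIs came from a small number of cells that carried several of the genes. In the library labelled P180, 18 of 8847 cells kept had a UMI of at least 2 of the 8 genes, and in the library labelled E18.5 none of 4543 had. Before likely doublets were left out, the numbers were 30 of 9582 labelled P180 and 1 of 4721 labelled E18.5. The 30 cells held 97.8% of the 11022 UMIs of the 8 genes in the quality-filtered library labelled P180, from 91.7% for Fcer1a and 93.5% for Ms4a2 to 99.3% for Tpsb2. A further 213 cells carried 1 of the genes, 204 of them with a single UMI.

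The removal of doublets decides how many of these cells are counted. Of the 30 cells, 12 (40.0%) were scored likely doublets, against 7.67% of all 9582 barcodes and 9.38% of the 2878 barcodes with at least 10000 UMIs. The 12 held 60.6% of the UMIs of the 8 genes, with 79.8% of Mcpt8, 75.9% of Prss34 and 13.6% of Tpsb2. Median depth was 25586 UMIs in the 30 cells, against 6001.5 in all 9582. The scores moved with the cells scored together: with no limit on mitochondrial UMIs 0 of 31 such cells were left out, and with a limit of 10% 3 of 28 were. Values per cell are therefore given for all 30, and beside a level of a set of these cells stands its level in the cells kept alone where the difference moved by over 1.5 times.

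**Figure D1:**
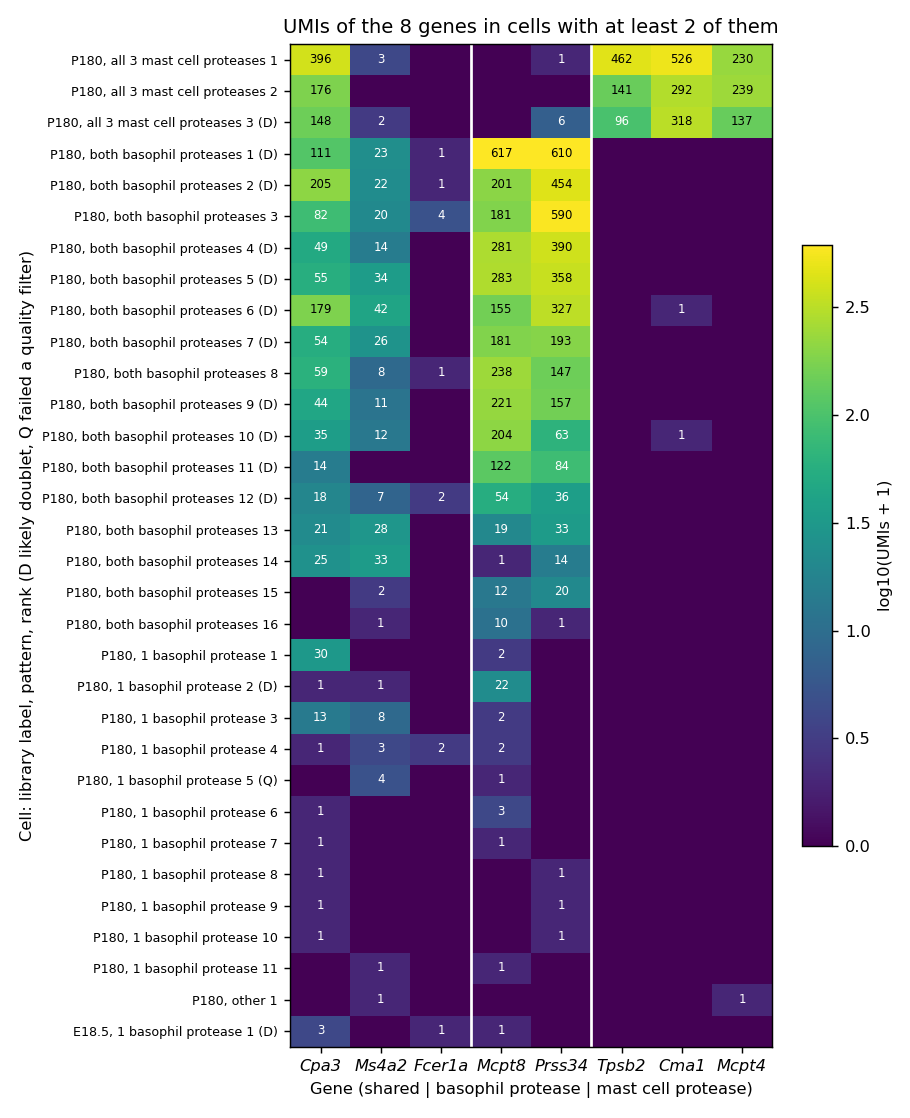
UMIs of the 8 genes (columns, shared genes, then basophil proteases, then mast cell proteases) in every cell with at least 2 of them (rows, 31 in the library labelled P180 and 1 in that labelled E18.5), on a log10 colour scale with the UMIs written in and 0 left blank. D marks likely doublets and Q a barcode that failed a quality filter. The 3 top rows carry the mast cell proteases, the 16 rows after them Mcpt8 with Prss34.

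The 30 cells fell into separate patterns of proteases. In 3 cells all 3 mast cell proteases were present, in 16 both Mcpt8 and Prss34, in 10 only 1 basophil protease and in 1 neither of these patterns (Ms4a2 and Mcpt4 with 1 UMI each). The cells kept among them were 2, 6, 9 and 1. Cells with all 3 mast cell proteases had no Mcpt8 UMI, and those with both basophil proteases had no Tpsb2 or Mcpt4 UMI.

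Cma1 had 526, 292 and 318 UMIs in the 3 cells with all mast cell proteases. Tpsb2 had 462, 141 and 96 UMIs and Mcpt4 had 230, 239 and 137 UMIs in the same cells. Cpa3 was high in each of them as well, with 396, 176 and 148 UMIs. The IgE receptor was sparse: Ms4a2 had 3, 0 and 2 UMIs and Fcer1a had none. Prss34 had 1, 0 and 6 UMIs. The first 2 cells were kept, with 8421 and 11886 UMIs in all, and the 8 genes made up 19.2% and 7.13% of their UMIs. The third was scored a likely doublet, with 32953 UMIs, of which 1897 came from haemoglobin genes, and the 8 genes made up 2.15% of it. These 3 cells held 98.5% of all Cma1, 99.3% of Tpsb2 and 99.0% of Mcpt4 UMIs of the quality-filtered library labelled P180.

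In the 16 cells with both basophil proteases, Prss34 ranged from 1 to 610 UMIs (median 152) and Mcpt8 from 1 to 617 UMIs (median 181). Cpa3 was found in 14 of the 16, with up to 205 UMIs (median 46.5), and Ms4a2 in 15, with up to 42 UMIs (median 17). Both receptor chain genes of the list were thus carried here, Fcer1a in 5 of the 16 cells with at most 4 UMIs. Cma1 was present in 2 of the cells with 1 UMI each. Of the 16, 10 were likely doublets, and in the 6 kept Prss34 ranged from 1 to 590 UMIs and Mcpt8 from 1 to 238 UMIs. Over the 16 cells, Ms4a2 had 587 CPM (521 to 660), against 93.9 CPM (30.5 to 219) in the 3 cells with the mast cell proteases. In the cells kept it had 602 CPM (485 to 738.5) in the 6 basophil protease cells. It then had 148 CPM (30.5 to 432) in the 2 mast cell protease cells, from 3 UMIs. Of the proliferation genes, Mki67 had a UMI in 14 and Top2a in 13 of the 16 cells, and of the 6 kept Mki67 had one in 5 and Top2a in 4. Of the 3 mast cell protease cells, 1 had them, and it was the likely doublet. Median depth was 11886 UMIs in the 3 cells and 27711 UMIs in the 16, and the part of depth in these shares was not tested.

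**Figure D2:**
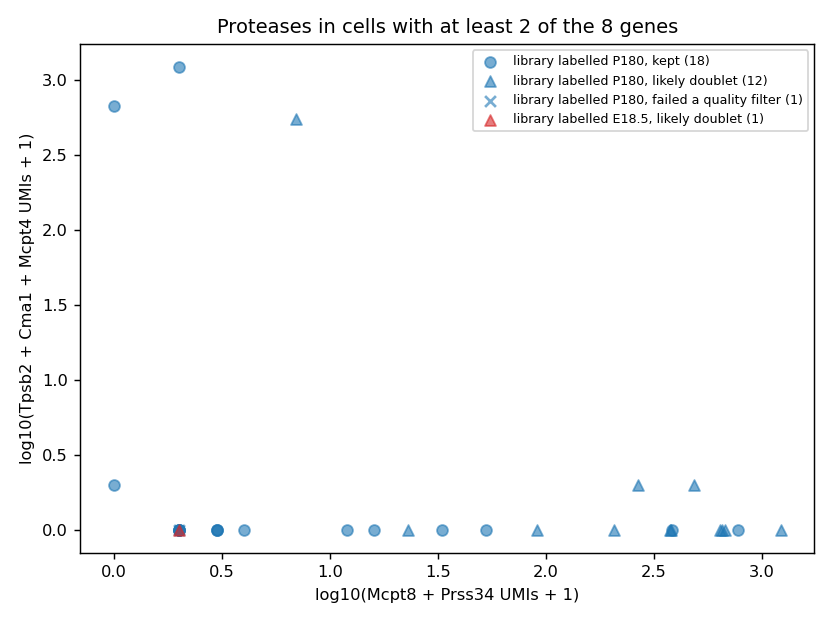
UMIs of the mast cell proteases (Tpsb2, Cma1 and Mcpt4, vertical) against those of the basophil proteases (Mcpt8 and Prss34, horizontal), each summed per cell on a log10(UMIs + 1) scale, in all cells with at least 2 of the 8 genes. Colour gives the library label and shape whether the cell was kept (18 labelled P180), a likely doublet (12 labelled P180 and 1 labelled E18.5) or failed a quality filter (1 labelled P180). The 3 cells at the top have at most 6 basophil protease UMIs, and the cells at the right have at most 1 mast cell protease UMI.

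The 10 cells with 1 basophil protease were mixed. One had 30 Cpa3 and 2 Mcpt8 UMIs together with 14 UMIs of Cd34, a surface marker of blood progenitors, 15 of Kit and 125 of Mpo, the granule peroxidase of early neutrophils. Another had 13 Cpa3, 8 Ms4a2 and 2 Mcpt8 UMIs with 89 of Mpo and 1 of Cd34. A pair with 1 Cpa3 UMI each and 3 or 1 Mcpt8 UMIs had 12 and 13 UMIs of Cd34. The likely doublet of this pattern had 22 Mcpt8 UMIs with 37 of Il1rl1, the receptor of interleukin 33, and 40 of Il4. In 3 cells of erythroid-like clusters, 1 UMI of Cpa3 met 1 UMI of Prss34, and haemoglobin made up 42.2%, 69.6% and 67.3% of their UMIs.

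Genes outside the 8 also differed between the 3 cells with mast cell proteases (the mast set) and the 16 with basophil proteases (the basophil set). The comparison uses genes that did not choose the cells, but the cells come from 1 library, so ratios carry counting intervals and no test. Of all genes tested, 20.1% of 13483 were at least 2-fold higher in the mast cell protease cells than in the 9552 cells with under 2 of the genes, and 15.5% of 13506 were so in the basophil protease cells. In the cells kept alone (2 in the mast set, 6 in the basophil set) these shares were 20.6% of 13313 in the mast set and 20.9% of 13315 in the basophil set. The lists that follow were counted whole, genes with few or no UMIs included, so their counts are not matched to these shares. The order of the sets turned with the removal of doublets for 11 of the 69 genes of the 6 lists: Btk, Cebpb, Fyn, Gab2, Gata2, Gfi1b, Ikzf1, Il4, Itgb7, Plcg2 and Spi1. For 0 of the 11 did the interval of the ratio exclude 1 both with and without the likely doublets. In the counts of listed genes at least 2-fold higher, 10 CPM was added to both levels before the fold. The ratios printed between the sets have nothing added.

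Among 10 other granule proteases of mast cells and the same gene clusters, 5 were at least 2-fold higher in the mast cell protease cells and 1 in the basophil protease cells. The count in the basophil set is near the share over all genes there (15.5%), and the share over all genes in the mast set was 20.1%. Tpsab1, the tryptase beside Tpsb2, had 37, 138 and 6 UMIs in the 3 mast cell protease cells and none in the 16 others, at least 546-fold higher in CPM against 3 counts. Tpsg1, a membrane tryptase, had 14 UMIs in the mast cell protease cells and none in the basophil protease cells. Ctsg, the cathepsin of the chymase cluster, had 920 CPM in the mast cell protease cells and 3506 CPM in the basophil protease cells (ratio 0.262, 0.193 to 0.349). In the cells kept it had 443 CPM in the mast set and 3109 CPM in the basophil set (ratio 0.143, 0.0648 to 0.273). Mcpt1 and Mcpt2, proteases of mucosal mast cells, and Mcpt9 had no UMI in either set.

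Of 10 genes for the granule proteoglycan, histamine and lipid mediators, 6 were at least 2-fold higher in the mast cell protease cells and 5 in the basophil protease cells. Hdc, which makes histamine, had 13, 9 and 51 UMIs in the mast cell protease cells and from 1 to 89 UMIs (median 16.5) in the basophil protease cells, where none lacked it. Its level was 1371 CPM in the mast set and 645 CPM in the basophil set (ratio 2.12, 1.62 to 2.75), against 16.1 CPM in the other cells. Srgn, the core protein of the granule proteoglycan, had 4300 CPM in the mast set and 3371 CPM in the basophil set, against 368 CPM in the other cells. In the cells kept it had 8519 CPM in the mast set and 2775 CPM in the basophil set (ratio 3.07, 2.56 to 3.67). Alox5ap, which presents arachidonate to 5-lipoxygenase, had 18.8 CPM in the mast cell protease cells and 1016 CPM in the basophil protease cells (ratio 0.0185, 0.000467 to 0.103), and in the cells kept no UMI in the mast set and 746 CPM in the basophil set.

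Of 13 genes of the IgE receptor and its signalling, 8 were at least 2-fold higher in the mast cell protease cells and 7 in the basophil protease cells. Fcer1g, the gamma chain shared by Fc receptors, had 1727 CPM in the mast set and 1079 CPM in the basophil set, against 376 CPM in the other cells (ratio 1.60, 1.27 to 2.002). In the cells kept it had 3299 CPM in the mast set and 661 CPM in the basophil set (ratio 4.99, 3.61 to 6.86). The adaptor Lat2 had 638 CPM in the mast set and 164 CPM in the basophil set (ratio 3.90, 2.53 to 5.89), and in the cells kept 1330 CPM in the mast set and 78.5 CPM in the basophil set (ratio 16.9, 8.29 to 36.7). The gamma chain and Lat2 were thus higher where Ms4a2 was lower.

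Of 12 receptors, 9 were at least 2-fold higher in the mast cell protease cells and 7 in the basophil protease cells. Il1rl1 had 12, 47 and 6 UMIs in the mast cell protease cells and from 2 to 20 UMIs (median 3.5) in the basophil protease cells, with levels of 1220 CPM in the mast set and 195 CPM in the basophil set (ratio 6.26, 4.49 to 8.68), and in the cells kept 2905 CPM in the mast set and 170 CPM in the basophil set (ratio 17.1, 10.6 to 28.2). Cd200r3, a receptor found on both cell types, had 526 CPM in the mast set and 473 CPM in the basophil set, against 0.303 CPM in the other cells. The ratio of the sets was 1.11 (0.723 to 1.65), within counting error, but in the cells kept Cd200r3 had 1330 CPM in the mast set and 248.7 CPM in the basophil set (ratio 5.35, 3.14 to 8.99). Csf2rb, the common beta chain of the interleukin 3 receptor, had 676 CPM in the mast set and 220 CPM in the basophil set (ratio 3.07, 2.05 to 4.53). All 36 UMIs of the mast set lay in 1 of its 3 cells, and in the cells kept the ratio was 8.46 (5.11 to 14.1). Kit, the receptor of stem cell factor, which was named after its values were seen, had 10, 18 and 2 UMIs in the mast cell protease cells and was found in 3 of the 16 basophil protease cells with at most 5 UMIs (ratio 30.2, 14.0 to 72.2). Kit had 18.7 CPM in the basophil set against 8.49 CPM in the other cells, which is over 2-fold only without the 10 CPM added. Mrgprb2, a receptor of connective tissue mast cells also named after its values were seen, had 10 UMIs in the mast cell protease cells, all in 1 cell, and none in the basophil protease cells.

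Of 12 transcription factors of the lineage, 2 were at least 2-fold higher in the mast cell protease cells and 8 in the basophil protease cells. The count in the mast set is near the share over all genes there (20.1%), and the share over all genes in the basophil set was 15.5%. Gata2 had 13, 4 and 2 UMIs in the mast cell protease cells and from 4 to 46 UMIs (median 24) in the basophil protease cells, with levels of 357 CPM in the mast set and 776 CPM in the basophil set (ratio 0.460, 0.274 to 0.728), against 1.03 CPM in the other cells. Runx1, a factor of blood cell formation, had 225 CPM in the mast set and 1180 CPM in the basophil set (ratio 0.191, 0.0981 to 0.336). Cebpa, a factor of granulocyte precursors named after its values were seen, had 0 UMIs in the mast set and 83 UMIs in the basophil set, at least 3.06-fold lower in the mast cell protease cells against 3 counts. In the cells kept alone, Gata2 had 837 CPM in the mast set and 622 CPM in the basophil set (ratio 1.35, 0.753 to 2.27), so its order turned with the removal of doublets. Cebpa then had 0 UMIs in the mast set and 20 UMIs in the basophil set, which the depth of the 2 mast cell protease cells cannot separate. Of the 12 factors, 5 were past the fold in the mast set (20.6% of all genes) and 6 in the basophil set (20.9% of all genes).

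Of 12 cytokine genes, 2 were at least 2-fold higher in the mast cell protease cells and 6 in the basophil protease cells. The count in the mast set is near the share over all genes there (20.1%), and the share over all genes in the basophil set was 15.5%. Ccl3, a chemokine, had no UMI in the mast cell protease cells and 815 CPM in the basophil protease cells, against 54.7 CPM in the other cells. Il6 had no UMI in the mast set and 320 CPM in the basophil set. Il4, a cytokine that basophils release, had 18.8 CPM in the mast set and 276 CPM in the basophil set. Ccl4, the neighbouring chemokine, went the other way with 676 CPM in the mast set and 245 CPM in the basophil set (ratio 2.76, 1.85 to 4.04). The 36 Ccl4 UMIs of the mast set lay in 1 kept cell, and in the cells kept the basophil set had none, at least 90.3-fold lower than the mast set against 3 counts. The levels of Ccl3, Il6 and Il4 in the basophil set rest mostly on the likely doublets. In the 6 basophil protease cells kept, Ccl3 had 52.4 CPM against 55.0 CPM in the other cells, Il6 had 85.1 CPM against 0.882 CPM and Il4 had 26.2 CPM against 0.294 CPM, and 3 of the 12 genes were past the fold, a share near the 20.9% of all genes in those cells. Il4 then had 1 UMI in the mast set and 4 UMIs in the basophil set, which gives no order (ratio 1.88, 0.0382 to 19.0).

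**Figure D3:**
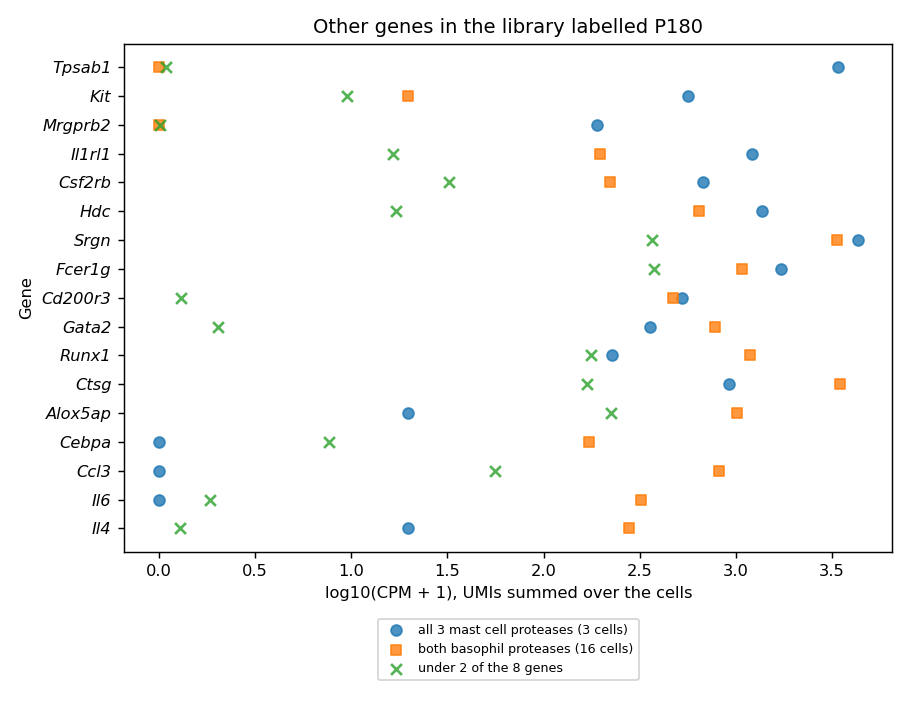
Levels of 17 genes outside the 8, picked from the lists in the text, as log10(CPM + 1) of UMIs summed over the 3 cells with all mast cell proteases, the 16 with both basophil proteases and the 9552 with under 2 of the 8 genes in the quality-filtered library labelled P180, likely doublets included. Tpsab1, Kit and Mrgprb2 lie to the right in the mast cell protease cells, and Cebpa, Ccl3 and Il6 are at 0 there.

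Markers of other cells were read in the same sets. All 8 early neutrophil precursor markers were found in the basophil protease cells, with a summed level between 422 and 14290 CPM per cell. In the mast cell protease cells 3 of 8 were found (168 to 1306 CPM), and Elane, Mpo, Prtn3, Fcnb and Igsf6 were at 0. The mast set has fewer and shallower cells, so these counts of markers are not matched in depth. The markers summed to 1051 CPM in the mast set and 7070 CPM in the basophil set, against 2268 CPM in the other cells. Ctsg alone had 3506 CPM in the basophil set, while Elane was found in 5 and Prtn3 in 9 of its 16 cells. Mpo had a UMI in 15 of the 16 basophil protease cells (median 42.5, highest 395). Other marker lists were also above the other cells. Blood progenitor markers, which include Kit and Gata2, summed to 1014 CPM in the mast set and 1075 CPM in the basophil set, against 80.8 CPM. Eosinophil markers summed to 56.3 CPM in the mast set and 207 CPM in the basophil set, against 22.0 CPM. NK cell markers summed to 188 CPM in the mast set and 282 CPM in the basophil set, against 89.2 CPM. Neutrophil markers summed to 469 CPM in the mast set and 504 CPM in the basophil set, against 61174 CPM in the other cells. Erythroid markers summed to 38716 CPM in the mast set and 26142 CPM in the basophil set, against 362836 CPM in the other cells. In the cells kept they summed to 3102 CPM in the mast set and 3057 CPM in the basophil set, and of the 3 mast cell protease cells the likely doublet had 60662 CPM and the other 2 had 2945 and 3325 CPM. Of the dendritic markers none of 11 was found in the mast cell protease cells and 4 of 11 in the basophil protease cells (16.6 CPM), and macrophage, endothelial and hepatocyte markers were at 0 in the mast cell protease cells. Whether other cells in the same droplet contributed to the 12 likely doublets was not tested.

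The genes most like the 8 were ranked by fold of summed CPM (10 CPM added) in the 18 cells kept over the other 8829 cells of the library labelled P180. Ifitm1, an interferon-induced membrane protein, led with a fold of 45.5 and a UMI in 12 of the 18 cells. Tpsab1 followed with 40.5, of which 78.9% of UMIs came from 1 cell, then Gata2 with 28.3 in 12 cells. Next came Cyp11a1, the enzyme that starts steroid synthesis from cholesterol, with 22.9 in 7 cells, the zinc-finger factor Ikzf2 with 18.7, Cd200r3 with 17.1, Hmga2 with 16.2, Basp1 with 15.2, Angpt1 with 14.0 and Auts2 with 13.3. Basp1 drew 73.2% of its UMIs from 1 cell. With likely doublets kept, the 10 genes were Ifitm1, Gata2, Cd200r3, Cyp11a1, Tpsab1, Il4, Il6, Hdc, Ikzf2 and Rgs1, so 6 genes were in both rankings. Cyp11a1 stood out by how rarely it was found elsewhere, in 0.0628% of the other cells against 19 of the 30. No such ranking could be made in the library labelled E18.5, where no cell kept had 2 of the genes.

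No cluster of either library took the name of mast cell or basophil, for which 14 markers outside the 8 were available. Of the 18 cells kept, 13 fell in 1 cluster of 322 cells of the library labelled P180, named dendritic-like from only 3 markers (H2-Aa, H2-Ab1 and Irf8) and led by Cst3, Cd74, Tmsb10, H2-Aa, Tmsb4x and Lyz2. Of the others, 3 fell among erythroid-like, 1 among neutrophil-like and 1 among unnamed cells. The clusters were made without the 8 genes. This class held 97.2% of Cpa3, 83.2% of Mcpt8, 84.1% of Ms4a2, 95.6% of Prss34 and 98.4% of Cma1 UMIs of the cells kept, and summed to 478.5 CPM (464 to 493.3). Without the cells that carried 2 or more of the genes it summed to 3.99 CPM. The 340 dendritic-like cells of the library labelled E18.5 had no UMI of any of the 8 genes, where 3 counts would be 0.574 CPM. The level of the class is thus that of 13 of its 322 cells, and the name depends on the clustering. At Leiden resolution 2 the dendritic-like cells of the library labelled P180 had 1.15 CPM and its monocyte-like cells 599 CPM.

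**Figure D4:**
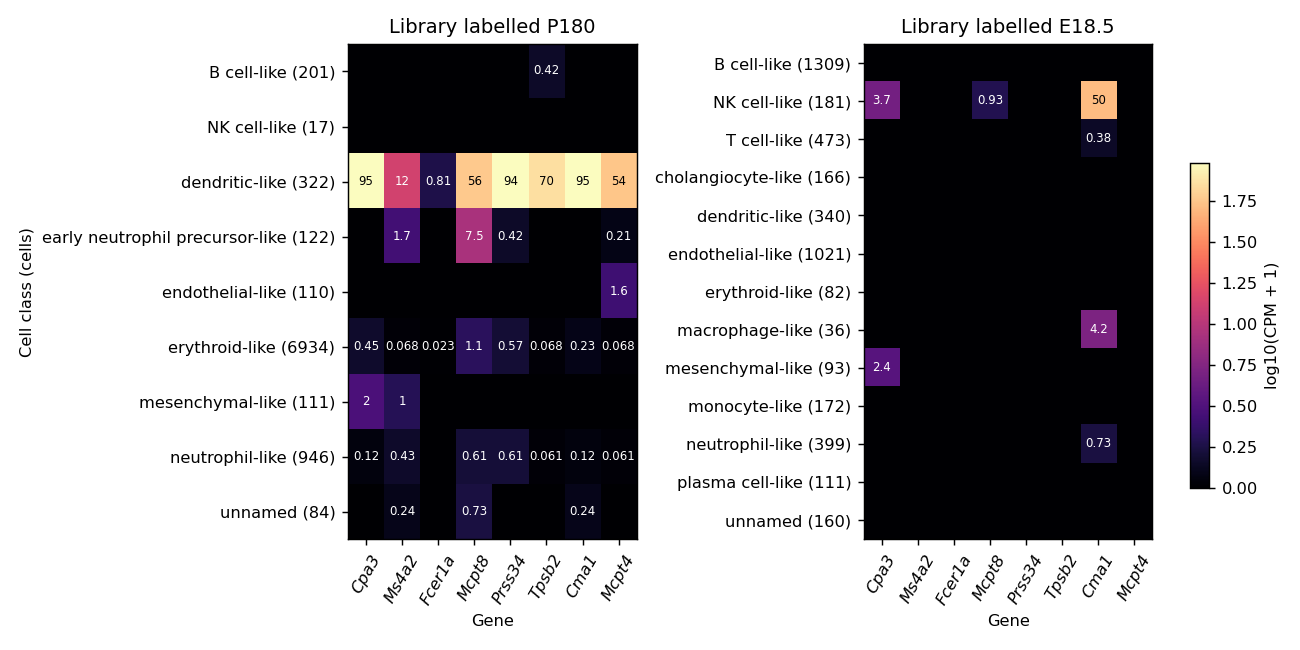
Level of each of the 8 genes by cell class in the library labelled P180 (left) and in that labelled E18.5 (right), as log10(CPM + 1) on a colour scale with the CPM written in and 0 left blank, and with the number of cells kept beside each class. The dendritic-like row of the library labelled P180 holds the cells with several of the genes, and Cma1 in NK cell-like cells (50.02 CPM) is the highest entry of the library labelled E18.5.

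Outside these cells the 8 genes were sparse in the library labelled P180. In 122 early neutrophil precursor-like cells Mcpt8 had 36 UMIs in 16 cells (13.1%, exact binomial 7.69 to 20.4), at a median depth of 39934 UMIs, and 17 of the UMIs came from 1 cell. Ms4a2 had 8 UMIs in 8 of the same cells, Prss34 had 2 and Cpa3 had none. In 6934 erythroid-like cells Mcpt8 had 49 UMIs in 48 cells (0.692%), at a median depth of 5237 UMIs. Of the UMIs of the 8 genes, Mcpt8 made up 76.6% and Prss34 4.26% in the precursor-like cells, and 45.4% and 20.4% in the erythroid-like cells. In the 30 several-gene cells, likely doublets included, the shares were 26.1% and 32.4%. The likely doublets among the 30 held 79.8% of Mcpt8 and 75.9% of Prss34 UMIs of the quality-filtered library. The mix in the several-gene cells kept alone was not computed, so no difference in mix from them is drawn. Thinned to 1000 UMIs a cell, Mcpt8 was left in 0 of 122 precursor-like cells and in 11 of 6472 erythroid-like cells, which at this level cannot show a difference in either direction. By summed level, which is scaled to depth, Mcpt8 had 7.54 CPM (5.28 to 10.4) in the precursor-like cells and 1.11 CPM (0.824 to 1.47) in the erythroid-like cells.

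Cma1 in the library labelled E18.5 was found in NK cell-like cells. Of its 57 UMIs, 54 (94.7%) lay in 32 of 181 NK cell-like cells (17.7%, exact binomial 12.4 to 24.0), at 50.02 CPM (37.6 to 65.3). Of these cells 17 had 1 UMI, 11 had 2, 3 had 3 and 1 had 6. T cell-like cells, which lack mast cell granules, had 1 UMI in 473 cells (0.211%). Median depth was 5818 UMIs in the NK cell-like and 5274 UMIs in the T cell-like cells. Thinned to 1000 UMIs, the shares were 5.53% (2.68 to 9.93) in NK cell-like and 0.212% in T cell-like cells. The 17 NK cell-like cells of the library labelled P180 had no Cma1 UMI, which allows up to 10.8 CPM.

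The NK cell-like cells formed 2 clusters, and every Cma1 UMI of the class lay in 1 of them. The cluster led by Gzma had a Cma1 UMI in 32 of 81 cells (39.5%, 28.8 to 51.0), at 122 CPM (91.5 to 159). The cluster led by Ccl5 and Xcl1 had none in 100 cells, which allows up to 5.80 CPM. Median depth was 5386 UMIs in the cluster with Cma1 and 6214 UMIs in the cluster without it. Both clusters carried NK receptor genes such as Ncr1 (580 CPM with Cma1 and 357 CPM without) and Klrb1c (629 CPM with and 327 CPM without). The cluster with Cma1 also had Eomes, a factor of NK cells, in 53 of 81 cells against 4 of 100 in the other, Klra8, a Ly49 receptor, in 42 of 81 against 0 of 100, and Prf1, the pore protein perforin, in 74 of 81 against 47 of 100. Of the same NK markers, Gzmb had 857 CPM in the cluster with Cma1 and 1344 CPM in that without it, and Klrd1 had 677 CPM in the cluster with Cma1 and 860 CPM in that without it. Genes of the T cell receptor complex were lower in the cluster with Cma1, with Cd3g at 15.8 CPM in the cluster with Cma1 and 1050 CPM in that without it. In the cluster without Cma1, Cd3g had a UMI in 76, Trbc2 in 75, Cd3d in 51 and Cd3e in 49 of 100 cells. The name NK cell-like thus does not set many cells of that cluster apart from T cells. The T cell markers Lef1 and Tcf7 were instead higher in the cluster with Cma1. Lef1 had 160 CPM in the cluster with Cma1 and 37.7 CPM in that without it. Tcf7 had 92.5 CPM (41 UMIs) in the cluster with Cma1 and 58.2 CPM (37 UMIs) in that without it.

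Of the other mast cell genes, several were at or near 0 in these cells. In the 181 NK cell-like cells, Mcpt4, Tpsab1, Cma2, Mcpt1, Mcpt2, Mcpt9 and Ctsg had no UMI, Hdc had 1 UMI, and Cpa3 had 4 UMIs in 1 cell that had no Cma1. Kit had 14 UMIs in 11 of the 181 cells (12.97 CPM). Fcer1g (1633 CPM) and Srgn (1715 CPM), which are on the lists of mast cell genes but are not particular to that lineage, had a UMI in 177 and 171 of the cells. Granzymes of the same chromosome 14 cluster were present, with Gzmb at 1144 CPM, and Gzma, which lies elsewhere, had 3928 CPM. The cell with 6 Cma1 UMIs had 3984 UMIs in all, 58 of Gzma and 3 of Gzmb.

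**Figure D5:**
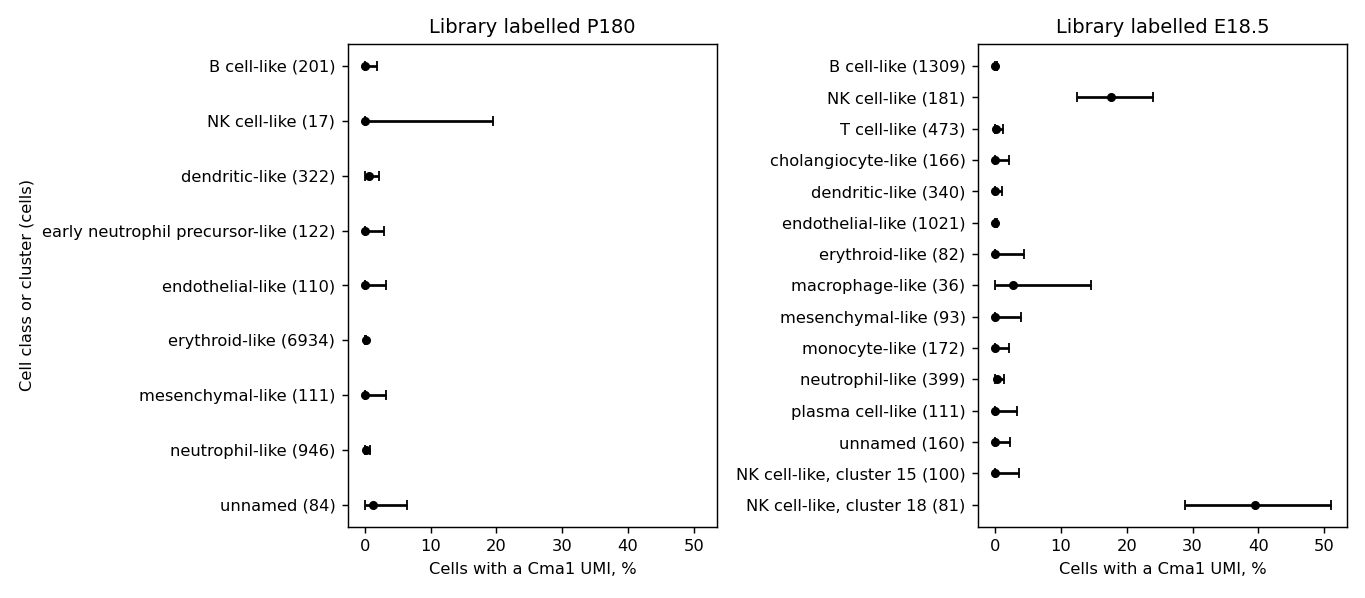
Share of cells with a Cma1 UMI (points) with exact binomial 95% intervals (bars) by cell class in the library labelled P180 (left) and in that labelled E18.5 (right), with the number of cells in brackets. The NK cell-like class of the library labelled E18.5 stands at 17.7%, and of its clusters, shown in the bottom rows, cluster 18 stands at 39.5% and cluster 15 at 0.

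Besides Cma1, the library labelled E18.5 held 1 cell with several of the genes, a likely doublet of 4822 UMIs with 3 of Cpa3, 1 of Mcpt8 and 1 of Fcer1a. It also had 11 UMIs of Gata2, 9 of Cd200r3, 6 of Hdc and 50 of Ccl3, and none of Kit. Another likely doublet had 14 Cpa3 UMIs of 21026 and none of Hdc, Kit, Gata2 or Tpsab1, and clustered with B cell-like cells when doublets were kept. Together these 2 barcodes held 17 of the 22 Cpa3 UMIs of that library after the quality filters.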

How the data were processed

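For both liver libraries the authors deposited UMI counts, one whole number for each gene in each barcode and not normalized. Per the file headers they come from Cell Ranger 7.1.0. The submitters' processing notes name fastp, Trimmomatic, Seurat, edgeR and mm10 with no role. The sources used here do not give the method of cell calling. The libraries held 90128038 UMIs (labelled P180) and 37709972 UMIs (labelled E18.5).

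A barcode was kept from 200 genes and 500 UMIs upward if its mitochondrial share was under 25%. Scrublet (scanpy 1.11.5) scored doublets, and the highest scores were left out at 0.8% per 1000 barcodes (735 barcodes labelled P180 and 178 labelled E18.5). Scrublet's own threshold marked 0 labelled P180 and 79 labelled E18.5. Each library was clustered alone, without the 8 genes, from 2000 variable genes, 30 components and 15 neighbours (Leiden, resolution 1, leidenalg 0.10.2, seed 1). A cluster took the class of 19 marker sets with the most markers among its 50 leading genes, with at least 3. Steps were tested on simulated data. Alternatives changed the limits, the doublet step, the clustering, the scaling and the minimum of genes or UMIs a cell. Promoter windows are from RefSeq (GRCm38.p6).

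Levels are UMIs summed over cells and scaled to 1000000 (CPM), with exact Poisson 95% intervals (shares exact binomial, ratios exact conditional; scipy 1.17.1, Python 3.11.15). The text names the 8 genes, the 10 genes of highest fold in cells with at least 2 of them (at least 20 UMIs, in at least 10% of those cells), and up to 4 examples a list, with later additions marked. The members, lists and rules were chosen with earlier results of these data known.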

Additional observations from a re-analysis of the deposited data

How the results depend on the processing

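Cells with at least 2 of the 8 genes in the library labelled P180 numbered 18, and 31 with no limit on mitochondrial UMIs, 31 with every deposited barcode, 30 with doublets kept, 10 with at least 3 genes, 10 with 2 UMIs of each gene and 9 after thinning. In the library labelled E18.5, every deposited barcode or doublets kept gave 1 in place of 0. With no limit, a limit of 10%, every barcode and doublets kept, in that order, the summed level under the P180 label was 132.9, 127.6, 122.4 and 122.6 CPM in place of 52.6, and that of its dendritic-like cells 1083, 1019, 1039 and 1050 CPM in place of 478.5. In those cells it was 1.15 CPM at Leiden resolution 2, where monocyte-like cells held 4116 of the UMIs of the 8 genes, and 3.99 CPM without them. Resolution 0.5 gave no dendritic-like class. The summed level under the E18.5 label was 2.85 CPM with a limit of 10% and 2.87 CPM with doublets kept, in place of 2.18. The log2 ratio of the sums was 5.93, 5.49, 5.65 and 5.42 under those 4 alternatives, 5.60 scaled by the median of ratios and 5.20 without haemoglobin genes, in place of 4.59. Doublet scoring left out 12 of 30 cells with several genes in the chosen setting, 0 of 31 with no limit and 3 of 28 with the limit of 10%, and the cause of the other moves was not tested. Cma1 in NK cell-like cells stayed between 44.3 and 52.1 CPM in all alternatives run. The sum of the 8 genes, Cpa3, Mcpt8 and Cma1 stayed higher in the library labelled P180 under each alternative for which their ratios were recomputed. The level of the dendritic-like cells, above that of the whole library labelled P180 in the chosen setting, fell below it at Leiden resolution 2. Between the sets of cells, the removal of doublets turned the order of 11 of 69 listed genes, as given beside Gata2 and Il4. No paired analysis was possible because each label has 1 library and the labels give no replicate numbers.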

Other observations

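Among the 16 cells with both Mcpt8 and Prss34 in the library labelled P180, Mpo and Ccl3 were high in different cells, a pattern and thresholds chosen after the values were seen. In the 6 cells with at least 100 Mpo UMIs, Ccl3 had at most 3 UMIs. In the 7 cells with at least 20 Ccl3 UMIs, Mpo had at most 48 UMIs (median 10), and no cell passed both thresholds. Gata2 was present in both sets, with 17 to 46 UMIs in the cells with Mpo and 7 to 46 UMIs in the cells with Ccl3. The median depth was 43497 UMIs in the cells with Mpo and 22534 UMIs in those with Ccl3. Of the cells with Mpo 3 were kept, and none of the 7 cells with Ccl3 was. The part of depth and of the doublet step in this pattern was not tested.

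The cell of the library labelled P180 with the most Mcpt8 UMIs outside the cells with several genes had 17 of them, with 469 UMIs of Elane, 364 of Mpo and 340 of Ctsg, and lay in the early neutrophil precursor-like cluster. Another cell had 8 Cpa3 UMIs and none of the other 7 genes, with 111 UMIs of Mpo, 7 of Kit and 3 of Hdc. With 1 library per label, none of these counts shows how often such cells occur in other livers.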
